A study of Mus musculus with 8 samples.

Results

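Sites bound by the transcription factor C/EBPα in livers of control mice, but called in neither library of livers in which Trib1 had been targeted, are described here. Peaks of 200 bp from all 8 libraries were joined into sites where they overlapped by 1 bp or more. A site belongs to the set when both Trib1_WT libraries and neither Trib1_LSKO library had a peak in it. Sites that were gained in the second experiment of the study (both AAV_Cebpa libraries, no AAV_Null library) or lost there (both AAV_Null libraries, no AAV_Cebpa library) were left out. This left 2849 sites, 6.45% of the 44155 sites called in both Trib1_WT libraries and part of 113353 sites in all. Before these exclusions 3661 sites (8.29%) had the pattern, of which 605 were also lost and 207 gained in the second experiment. The 2849 sites are called lost-alone sites below, and "lost" stands for this pattern of peak calls only. The sites were chosen by the presence and absence of peaks in the Trib1_LSKO and Trib1_WT lists, so values from those lists describe the sites and were not tested.

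All libraries were made by chromatin immunoprecipitation with the same C/EBPα antibody from liver of C57B/6 mice, 8 to 10 weeks old and fasted for 4 hours, with 2 libraries in each of 4 groups. Trib1_LSKO were Trib1 flox/flox mice given 1.5e11 gc of a Cre vector (AAV_Cre), and Trib1_WT were Trib1 flox/flox mice given the same amount of an empty vector (AAV_Null). AAV_Cebpa and AAV_Null were C57B/6 wild-type mice given 1e12 gc of a vector for C/EBPα or of the empty vector. Mice of all 4 groups thus carried an adeno-associated virus vector, and the floxed alleles were present in both Trib1 groups. The sources used here give neither the promoter that drives Cre or C/EBPα nor whether the replicates were separate animals, so spreads between them may be technical. Whole liver was used, so fewer cells with a bound site and less binding per cell cannot be told apart.

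C/EBPα is a basic leucine zipper factor that binds DNA as a dimer and helps to keep hepatocytes differentiated, with targets in glucose, lipid and plasma protein metabolism. Trib1 encodes a pseudokinase without effective catalytic activity. Tribbles proteins act as scaffolds that bring C/EBPα to the ubiquitin ligase COP1, after which the factor is degraded. Loss of Trib1 in liver is accordingly known to raise the amount of C/EBPα. Peak lists hold no expression values, so Trib1 loss and C/EBPα abundance could not be checked in these livers.

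The lists held 50075 and 53072 peaks in Trib1_LSKO, 53327 and 54691 in Trib1_WT, 59564 and 80394 in AAV_Cebpa, and 46348 and 49052 in AAV_Null. Each peak has 1 signal value, the authors' own, which ranked peaks only within its list. Ranks are given as percentiles, with the strongest peak of a list at 100. Depth relative to the shallowest library was 1.18 and 1.28 in Trib1_LSKO and 1.14 and 1.93 in Trib1_WT, so 1 of the control libraries was the deepest of these 4. With tags thinned to the shallowest library, 2548 sites met the rule.

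Lost-alone sites were mostly weak in the livers that held them. Their signal in Trib1_WT replicate 1 ran from 4.7 to 95 with a median of 10.7, and in Trib1_WT replicate 2 from 4.3 to 91.6 with a median of 10.3. Sites called in all 4 Trib1 lists had median signals of 30.1 and 30.0 in the same lists. As percentiles, the lost-alone sites had medians of 23.2 and 23.1 in the Trib1_WT lists, against 65.5 and 66.3 for the sites called in all 4. In sequence tags, the units of which the signal values are whole multiples, the lost-alone medians were 16 and 26. The weakest peaks listed in Trib1_LSKO had signals of 5.1 and 4.8, or 8 tags each. Both control signals were at least 2 times the higher of these minima at 1265 lost-alone sites (44.4%) and at least 4 times at 316 (11.1%). These multiples set signals of different lists side by side, and each minimum is the lowest listed peak, not a known calling threshold. By this measure the set holds many sites near the lowest listed Trib1_LSKO signals and a smaller group well above them.

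**Figure D1:**
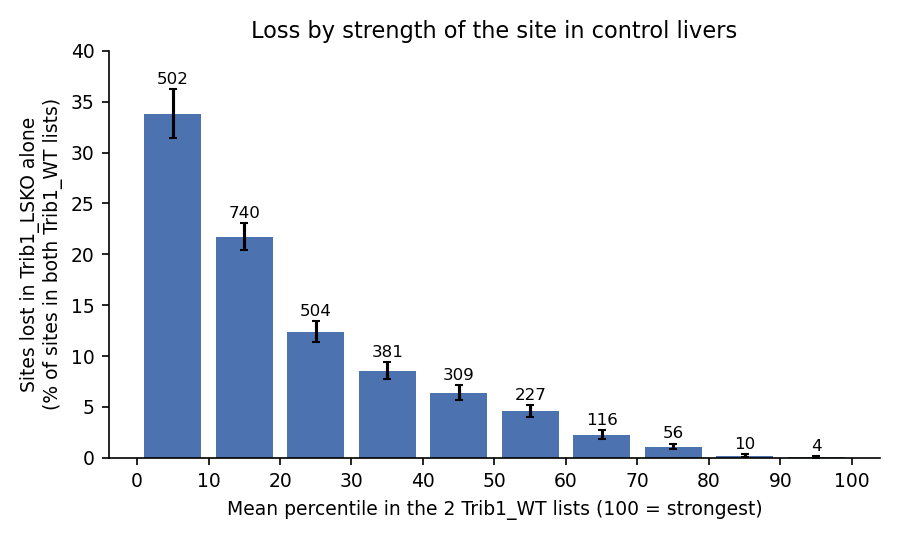
Bars give the share of sites called in both Trib1_WT lists (percent, vertical axis) that were lost in Trib1_LSKO alone, in bins of 10 percentiles of mean Trib1_WT strength (horizontal axis), with 95% Wilson intervals and the number of lost-alone sites above each bar. The share is 33.8% in the weakest bin and 0.0758% in the strongest.

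The share of control sites that were lost alone was lower in every stronger bin. Between the 10th and 20th mean percentile of the Trib1_WT lists it was 21.7% (95% Wilson interval 20.4% to 23.1%, 740 of 3408 sites). Between the 40th and 50th it was 6.38% (5.73% to 7.11%, 309 of 4841), and between the 70th and 80th 1.08% (0.831% to 1.4%, 56 of 5196). Above the 80th percentile only 14 sites were lost alone, 10 below and 4 above the 90th. Intervals cover the counting of sites only. The class in between, called in both Trib1_WT lists and 1 Trib1_LSKO list, held 4191 sites under the same exclusions.

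The replicate error at such strengths is large. Of sites between the 20th and 30th percentile of Trib1_WT replicate 1, 42.0% and 37.0% had no peak in the Trib1_LSKO lists, and 28.9% had none in the other Trib1_WT list. Between the 50th and 60th percentile the same shares were 18% and 12.6% for Trib1_LSKO and 6.79% for the other control. In both bins, absence from a single list was thus more frequent across groups than within the control group. It was common within the control group too. The other Trib1_WT list here was replicate 2, the deepest Trib1 library. Starting from replicate 2, 41.7% and 33.6% of sites between the 20th and 30th percentile were missing in Trib1_LSKO, and 28.6% in Trib1_WT replicate 1. Between the 50th and 60th these shares were 21.2%, 14.2% and 10.7%. Below the 10th they were 69.1%, 66.2% and 66.2%. The part of depth in these gaps was not tested. The 2 Trib1_WT midpoints of a lost-alone site lay a median of 20 bp apart, against 11 bp for sites called in all 4 Trib1 lists. In the bin from the 20th to the 30th percentile these medians were 22 bp and 17 bp, and the lost-alone median was the larger in each bin up to the 70th percentile. From the 70th to the 80th it was the smaller, 7 bp against 10 bp.

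Members at the median are examples of Trib1_WT strength only. In the second experiment, 38.5% of the set had no peak in any library and 7.97% had one in all 4. A site at the median lay on chromosome 14, 124977066 to 124977323 in mm9 coordinates, with signals of 10.7 and 10.3 in Trib1_WT. It was called in all 4 libraries of the second experiment, at 8.7 and 7.7 in AAV_Cebpa and at 21.3 and 22.8 in AAV_Null. The nearest Trib1_LSKO peaks were 2723 and 2721 bp away. Another median site, on chromosome 9, 53158260 to 53158520, had the same Trib1_WT signals and a peak in AAV_Null replicate 2 alone, at 8.5. The weakest lost-alone site, on chromosome 18, 73325768 to 73325982, had 4.7 in both Trib1_WT lists and no peak in any other library. Just outside the rule, a site on chromosome 10, 77696572 to 77696786, had a signal of 5.8 in Trib1_LSKO replicate 1, none in replicate 2, and 7.4 and 8.3 in Trib1_WT. At the other end of the near misses, chromosome 15, 85601862 to 85602088, had 85.6 in Trib1_LSKO replicate 1 and none in replicate 2, with 117.8 and 94.4 in Trib1_WT.

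The strongest lost-alone sites had another C/EBPα peak beside them in the Trib1_LSKO lists. The top site, on chromosome 13, 35108176 to 35108417, had signals of 95 and 91.6 in Trib1_WT. The Trib1_LSKO lists placed peaks of 66.3 and 75.6 at 294 and 299 bp from it, at the 92.0 and 93.3 percentile of their lists. All 4 libraries of the second experiment lacked the site as well and had their nearest peaks 250 to 311 bp away. The third site, on chromosome 1, 164821957 to 164822166, had 91.0 and 65.9 in Trib1_WT, and Trib1_LSKO peaks of 90.1 and 94.7 stood 327 and 300 bp away. The seventh, on chromosome 5, 51986865 to 51987102, had 58.9 and 60.8 in Trib1_WT, with Trib1_LSKO peaks of 73.3 and 82.2 at 298 and 285 bp. At these 3 sites the Trib1_LSKO libraries held a strong peak close to the control position. Its 200 bp window did not meet the control windows, so the site counts as lost under the rule. Whether the 2 positions mark the same or separate binding was not tested. Of the 12 strongest lost-alone sites, the only one with no Trib1_LSKO peak within 500 bp was the fifth, described below. The fourth, on chromosome 11, 86395309 to 86395510, had 70.3 and 69.1 in Trib1_WT, with a Trib1_LSKO replicate 1 peak of 63.7 at 391 bp and a replicate 2 peak of 74.4 at 1347 bp. The second, on chromosome 11, 68908556 to 68908817, had 80.3 and 73.0 in Trib1_WT, with Trib1_LSKO peaks of 52.1 and 59.0 at 363 and 358 bp.

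**Figure D2:**
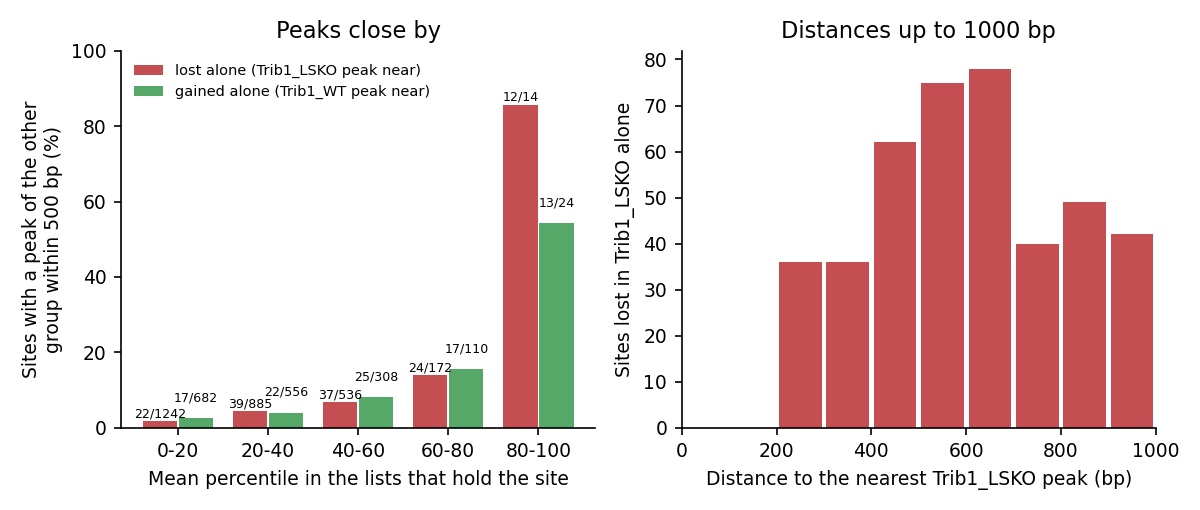
Left, percent of lost-alone sites with a Trib1_LSKO peak within 500 bp (red), beside percent of gained-alone sites with a Trib1_WT peak within 500 bp (green), by mean percentile in the lists that hold the site, with counts above the bars. Right, number of lost-alone sites by distance in bp to the nearest Trib1_LSKO peak, up to 1000 bp. The share of lost-alone sites is 1.77% in the weakest class and 85.7% in the strongest.

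This closeness was graded with strength. Of the 14 lost-alone sites above the 80th mean percentile, 12 had a Trib1_LSKO peak within 500 bp in at least 1 list, and 10 had it in both lists. From the 60th to the 80th percentile it was 24 of 172 (14.0%), and below the 20th 22 of 1242 (1.77%). Over the whole set it was 134 of 2849 (4.7%). Sites gained in Trib1_LSKO alone, the mirror class of 1680 sites (3.96% of those called in both Trib1_LSKO lists), had a Trib1_WT peak that close in 13 of 24 cases above the 80th percentile and in 17 of 682 below the 20th. Of the 134 close Trib1_LSKO peaks, 75 lay at sites in neither Trib1_WT list, 15 at sites in 1 and 44 at sites in both. The lists themselves rarely hold peaks so near to each other: only 12 to 26 neighbouring pairs in a list were under 400 bp apart, against 348 to 727 pairs from 400 to 500 bp. The smallest distance in any list was 263 bp. The sources used here do not give the peak caller's settings, and the part of this spacing in the lost-alone sites was not tested. The 500 bp limit was set after the distances had been seen.

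Without the sites that had such a neighbour, 2715 lost-alone sites remained, with a median mean percentile of 22.2. The strongest of them, on chromosome 14, 66338169 to 66338379, had 70.3 and 57.6 in Trib1_WT and no peak in the libraries of the second experiment. Its nearest Trib1_LSKO peaks were 946 and 942 bp away. The next, on chromosome 18, 39005306 to 39005544, had 47.5 and 48.2 in Trib1_WT, a peak of 44.3 in AAV_Cebpa replicate 2 and one of 36.5 in AAV_Null replicate 1. A site on chromosome 6, 38500627 to 38500848, had 44.2 in both Trib1_WT lists. It was called in all 4 libraries of the second experiment, at 39.6 and 49.6 in AAV_Cebpa and 46.4 and 45.0 in AAV_Null, and the nearest Trib1_LSKO peaks were 14708 and 14826 bp away. This last site was listed at 39.6 to 49.6 in 6 lists and in neither Trib1_LSKO list. These 3 sites were taken from the set without close peaks, a choice made after the values had been seen.

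The libraries of the second experiment held lost-alone sites far less often than other control sites. AAV_Cebpa lists held 18.1% and 39.3% of them, and AAV_Null lists 32.6% and 36.5%. Of all sites called in both Trib1_WT lists, 73.2% and 80.9% were called in AAV_Cebpa and 78.8% and 79.2% in AAV_Null. Sites called in all 4 Trib1 lists, with the same exclusions applied, reached 87.9% and 94.1% in AAV_Cebpa and 90.7% and 90.4% in AAV_Null. Where a lost-alone site was called, it was again weak, with median percentiles of 28.9 and 32.9 in AAV_Cebpa and 29.5 and 27.4 in AAV_Null.

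**Figure D3:**
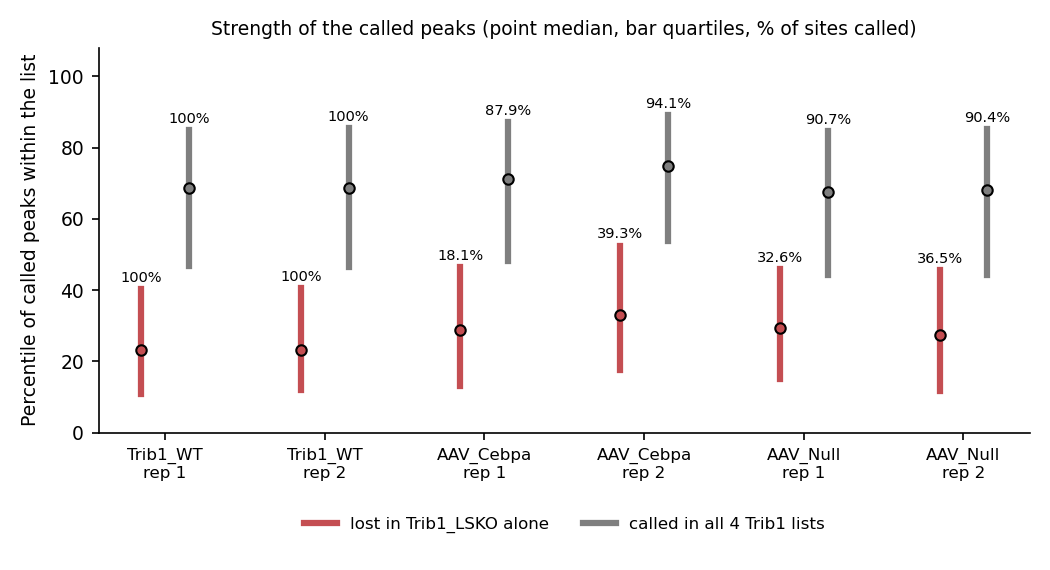
Median (points) and quartiles (bars) of the percentile of called peaks within each list, for lost-alone sites (red) and sites called in all 4 Trib1 lists under the same exclusions (grey), with the percentage of sites called above each bar. Lost-alone medians lie between 23.1 and 32.9 in all 6 lists.

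How often AAV_Cebpa and AAV_Null held lost-alone sites was in part set by the rule, which took out 207 lost sites held by both AAV_Cebpa lists only and 605 held by both AAV_Null lists only. Before that step, the 3661 lost sites were called at 19.7% and 36.2% in AAV_Cebpa and at 41.9% and 44.9% in AAV_Null, without overlap and with a difference of -15.4 percentage points. After it, the mean share was 28.7% ± 15.0 in AAV_Cebpa and 34.5% ± 2.73 in AAV_Null (SD, n = 2 each), a difference of -5.84 percentage points with an exact two-sided permutation p of 1.0. This design cannot give a p below 0.33. The groups overlapped here, since AAV_Cebpa replicate 2, the library with the most peaks, had the highest share and replicate 1 the lowest. With lists of equal length they did not overlap and the difference was -14.2 points. That cut, to 46348 peaks per list, took the most from AAV_Cebpa replicate 2, which had 80394. The share of all control sites that each list held after the cut is not given here. The part of the cut in this difference was not tested. The p of 1.0 thus says nothing of whether the 2 treatments act alike on sites lost in Trib1_LSKO.

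Lost-alone sites were also called less often there than other sites of equal Trib1_WT strength. Between the 20th and 30th mean percentile, AAV_Cebpa lists held 15.1% and 38.5% of them, and AAV_Null lists 34.9% and 35.1%. Sites of the same bin called in 1 Trib1_LSKO list gave 44.2% and 63.1% in AAV_Cebpa and 57.8% and 55.6% in AAV_Null. Those called in both Trib1_LSKO lists gave 76.1% and 85.6% in AAV_Cebpa and 74.5% and 74.3% in AAV_Null. The order of these 3 classes was the same in each of the 4 libraries in every bin up to the 80th percentile, the AAV_Null livers of wild-type mice included. Sites are not replicates, so no test was made across them.

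**Figure D4:**
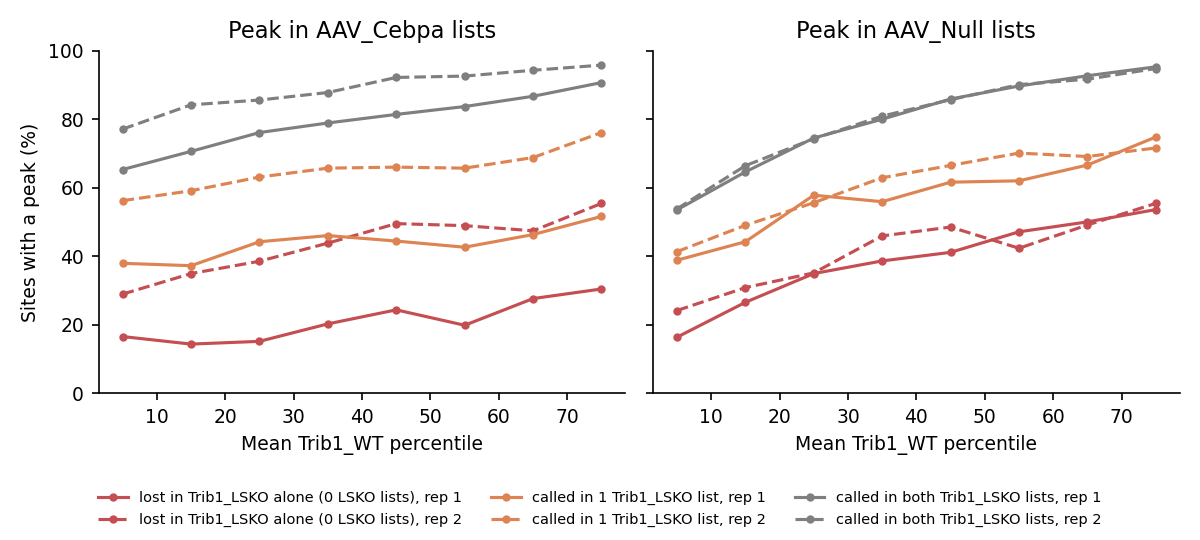
Percent of sites with a peak in AAV_Cebpa (left) and AAV_Null (right) lists, against mean Trib1_WT percentile in bins of 10 up to 80, for lost-alone sites (red), sites called in 1 Trib1_LSKO list (orange) and in both (grey), with replicate 1 solid and replicate 2 dashed. In each library the lost-alone line is the lowest and the line of sites called in both is the highest.

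Read from the other side, the share that was lost alone depended on how many of the 4 libraries of the second experiment held the site. Of control sites in none of them, 1098 of 2594 (42.3%) were lost alone. Of those in 1 library it was 812 of 2672 (30.4%), in 2 libraries 253 of 1085 (23.3%), in 3 libraries 459 of 6133 (7.48%), and in all 4 libraries 227 of 25622 (0.886%). The exclusions took sites in both libraries of 1 group and none of the other out of the class with 2 libraries. Strength differed between these classes of lost-alone sites, with median mean percentiles of 19.1 for sites in none and 36.6 for sites in all 4. Within 1 bin of strength, from the 40th to the 50th percentile, 85 of 275 sites in none (30.9%) and 37 of 2235 sites in all 4 (1.66%) were lost alone. The 1098 sites in none, 38.5% of the set, were thus seen in the 2 Trib1_WT libraries and in no other library of the study. The 2 experiments differed in genotype and vector dose. Peaks on chromosome Y were also listed in all 4 Trib1 libraries and in no library of the second experiment. The part of these differences in that number, and in how often the second experiment held lost-alone sites, was not tested.

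The 227 lost-alone sites called in all 4 libraries of the second experiment are those that 6 lists hold and only Trib1_LSKO lacks. The matching number for sites missing only from Trib1_WT was 241. Sites missing only from AAV_Cebpa numbered 1742 and those missing only from AAV_Null 2058. The strongest of the 227 was on chromosome 10, 17996253 to 17996496, with 68.9 and 53.3 in Trib1_WT. It was followed by a site on chromosome 13, 105430861 to 105431093, with 65.6 and 53.3 in Trib1_WT, 39.6 and 45.6 in AAV_Cebpa and 60.9 and 58.1 in AAV_Null. A site on chromosome 12, 43536699 to 43536949, came next, with 52.2 and 49.0 in Trib1_WT. All 3 had Trib1_LSKO peaks 235 to 302 bp away. After the chromosome 6 site given above came one on chromosome 19, 37281935 to 37282144, with 48.8 and 39.9 in Trib1_WT, 32.2 and 39.6 in AAV_Cebpa and 44.9 and 47.0 in AAV_Null. Its nearest Trib1_LSKO peaks, at 1601 and 1597 bp, had signals of 87.5 and 81.6.

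Sites that kept their peak near a lost-alone site also ranked lower in Trib1_LSKO. The 443 sites called in all 4 Trib1 lists that lay 0.5 to 2 kb from a lost-alone site had median percentiles of 56.8 and 60.9 in Trib1_LSKO, against 66.3 and 67.8 in Trib1_WT. At 2 to 10 kb (1431 sites) the medians were 60.3 and 63.4 in Trib1_LSKO and 67.1 and 68.3 in Trib1_WT. Over 200 kb away (16790 sites) they were 62.4 and 65.1 in Trib1_LSKO and 63.8 and 63.8 in Trib1_WT. The share of these retained sites whose mean percentile was lower in Trib1_LSKO was 80.6% at 0.5 to 2 kb, 73.2% at 2 to 10 kb, 70.6% at 10 to 50 kb, 65.8% at 50 to 200 kb and 58.0% beyond. With lists of equal length, ranked again, these shares were 77.1%, 69.9%, 67.4%, 63.1% and 55.2%. The share was thus above 50% in every distance class and was largest in the nearest. The 251 retained sites 0.5 to 2 kb from a site gained in Trib1_LSKO alone had medians in the opposite order. They were 67.8 and 68.6 in Trib1_LSKO and 63.8 and 64.8 in Trib1_WT. Site by site, the median difference there was -0.7 points and 53.4% were lower in Trib1_LSKO. Over 200 kb from such gained sites, the median difference was -2.81 points and 64.5% were lower. The share lower in Trib1_LSKO was thus smaller near gained sites than far from them.

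**Figure D5:**
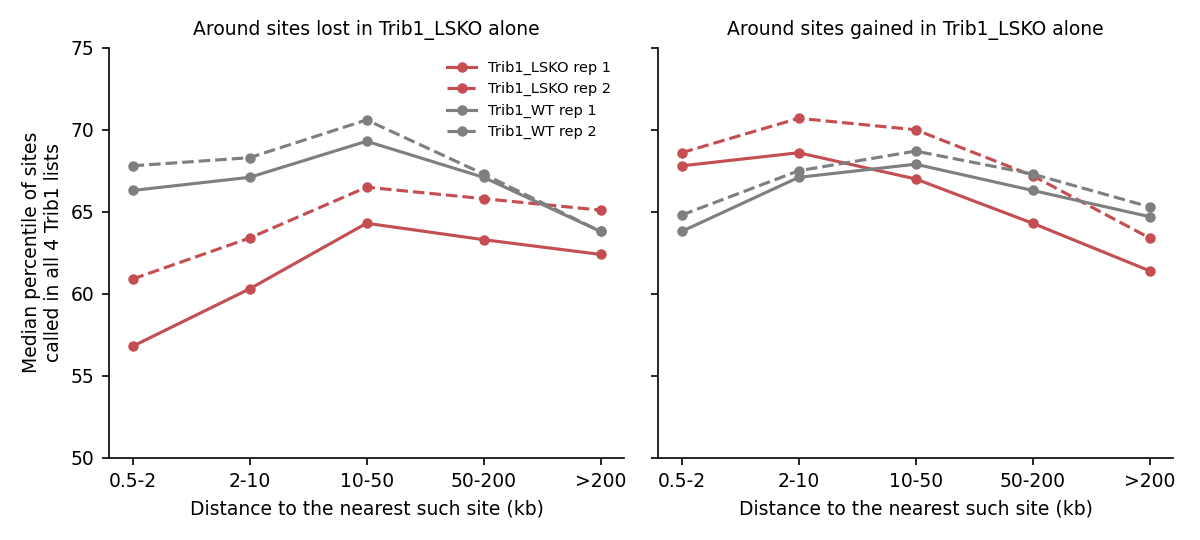
Median percentile of sites called in all 4 Trib1 lists, against their distance in kb to the nearest lost-alone site (left) or gained-alone site (right), in Trib1_LSKO (red) and Trib1_WT (grey), replicate 1 solid and replicate 2 dashed. The vertical axis runs from 50 to 75. Near lost-alone sites the Trib1_LSKO medians are 56.8 and 60.9 and the Trib1_WT medians 66.3 and 67.8.

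The retained neighbours come from the same lists that chose the lost-alone sites, so this is a description, and the distance classes were set after earlier results had been seen. The libraries of the second experiment entered that choice through the exclusions, so no test was made on them either. Relative to retained sites over 200 kb away, the median of the neighbours at 0.5 to 2 kb differed by -3.78 and -4.43 percentile points in AAV_Cebpa, and by -1.74 and 0.0 in AAV_Null. Their means differed by -3.23 points, by -2.7 with lists of equal length, and by -1.57 around all 3661 lost sites. In that last setting the values were -1.88 and -3.11 in AAV_Cebpa and -1.85 and 0.0 in AAV_Null, so that the groups nearly met. Around the lost-alone sites, with full lists, the corresponding differences were -5.56 and -4.19 in Trib1_LSKO and 2.51 and 4.0 in Trib1_WT. Around all 3661 lost sites they were -6.78 and -3.4 in Trib1_LSKO and 3.0 and 4.89 in Trib1_WT.

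Beyond 1 kb, the next changed site was more often a lost one near lost-alone sites than near gained-alone sites. At 1 to 10 kb, 239 of 339 such neighbours (70.5%) were lost in Trib1_LSKO, at 10 to 50 kb 723 of 1078 (67.1%), and beyond 100 kb 1845 of 3421 (53.9%). Among all sites gained or lost in Trib1_LSKO, 50.6% were lost. Next to gained-alone sites, lost sites made up 28.9% of neighbours at 1 to 10 kb and 47.6% beyond 100 kb. Within 1 kb this pattern did not hold: 45 of 94 neighbours of lost-alone sites (47.9%) and 44 of 72 neighbours of gained-alone sites (61.1%) were lost. This is the distance range of the close pairs described above. The median distance from a lost-alone site to the nearest other one was 155543 bp, and 40.3% had one within 100 kb. Retained sites, under the same exclusions, lay a median of 184870 bp from a lost-alone site, and 34.7% had one within 100 kb. Of lost-alone sites, 43.9% had a retained site within 10 kb, against 58.0% of retained sites themselves.

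The densest groups held 5 lost-alone sites within 100 kb. They were picked by these sites, so the lower peak counts of Trib1_LSKO in them follow in part from the rule. On chromosome 1, 153162504 to 153180583, Trib1_WT lists each had 6 peaks over 18080 bp and Trib1_LSKO lists 1 each. Its 5 lost-alone sites had mean percentiles of 23.9 to 54.2. The 1 retained site there stood at 59.2 and 54.9 in Trib1_LSKO and at 76.4 and 84.8 in Trib1_WT. On chromosome 9, 53096911 to 53179798, the Trib1_LSKO lists had 5 peaks each and the Trib1_WT lists 13 each, with median percentiles of the 4 retained sites of 38.2 and 44.5 in Trib1_LSKO and 61.1 and 67.0 in Trib1_WT. On chromosome 11, 106312030 to 106388138, there were 7 and 9 peaks in Trib1_LSKO and 14 each in Trib1_WT, and the 6 retained sites had similar medians, 85.0 and 87.8 in Trib1_LSKO and 87.4 and 88.7 in Trib1_WT. In the second experiment the chromosome 1 group had 1 and 1 of its 5 sites called in AAV_Cebpa and 3 and 0 in AAV_Null. None of the 3 regions held a site gained in Trib1_LSKO.

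Lost-alone sites lay on all chromosomes. The share of control sites lost alone ran from 5.7% on chromosome 16 to 7.62% on chromosome 14 among the autosomes, with Wilson intervals of 4.71% to 6.89% and 6.45% to 8.97%. These intervals cover the counting of sites only and are no test between chromosomes. Chromosome X had the highest share, 8.66% (7.04% to 10.6%, 83 of 958). Its sites were weak throughout: the median percentile of all X peaks was 34.5 and 34.1 in Trib1_LSKO, 34.6 and 32.0 in Trib1_WT, 28.9 and 29.1 in AAV_Cebpa, and 31.9 and 29.4 in AAV_Null, and no lost-alone site on X exceeded a mean percentile of 42.8. At the loss of each strength bin over all chromosomes, 97.8 sites would be lost alone on X, against 83 found. The strongest on X, 100779713 to 100779939, had 16.7 and 17.4 in Trib1_WT and was called in all 4 libraries of the second experiment, at 19.8 and 27.2 in AAV_Cebpa and 21.3 and 41.1 in AAV_Null. The third on X, 68045971 to 68046201, had 16.7 and 16.6 in Trib1_WT, 8.7 and 13.7 in AAV_Cebpa and 17.5 and 24.8 in AAV_Null. Chromosome Y held 1 lost-alone site. Peaks on Y numbered 9 and 12 in Trib1_LSKO and 13 and 14 in Trib1_WT and were listed in no library of AAV_Cebpa or AAV_Null.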

How the data were processed

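Data were the authors' 8 deposited peak lists, 1 per library, with positions and 1 signal value per peak; Bowtie, HOMER and build mm9 are named in the submitters' processing notes. Versions, thresholds and any input library: not given in the sources used here. The deposited signal values were whole multiples of 1 step per list (tolerance 0.0505) for at least 99.884% of peaks. The inverse step was taken as relative depth and signal divided by step as tags. Peak windows of 200 bp were joined at 1 bp of overlap with Python 3.11.15, numpy 2.4.6 and pandas 2.3.3, and plots drawn with matplotlib 3.10.9. Joining and step finding were tested on simulated lists of well separated sites, with a small check of adjoining windows. Closely spaced peaks of different lists were otherwise not covered. Coordinates are mm9, 1-based. Sequence and genes of that build were not used here, so no gene or motif was assigned. The share of lost-alone sites called in AAV_Cebpa and AAV_Null had an exact two-sided permutation test over libraries, repeated under each alternative and as a sign-flip test with the replicate block. No other comparison was tested. Intervals are Wilson (scipy 1.17.1). The sites and comparison sets were chosen with earlier results of these data known. Named sites were the 12 strongest, the 5 strongest by state in the second experiment and on X, those nearest the median, the weakest, near misses and the 3 densest groups, each by mean Trib1_WT percentile, of which a part is printed. The 500 bp rule and the retained neighbours were added after seeing the data. Alternatives were other windows, stronger or equal lists, thinned tags, a signal minimum, autosomes and leaving out libraries.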

Additional observations from a re-analysis of the deposited data

How the results depend on the processing

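The number of lost-alone sites (2849) was within 1.5 times of itself under 11 of 17 alternatives. It was 1656 when each list was cut to its strongest 50%, and 316 when only the Trib1_WT lists were cut so. Leaving out 1 library gave 2450 to 7591 sites, the most without Trib1_WT replicate 1, followed by 7383 without Trib1_WT replicate 2, 5582 without Trib1_LSKO replicate 2 and 4307 without Trib1_LSKO replicate 1, since the rule then asks for fewer lists. The share of control sites lost alone (6.45%) was 6.94% and 1.33% under the same 2 changes, 5.12% with lists of equal length, 5.94% with thinned tags, 5.31% with a signal of at least 10, 6.15% without sites that had a Trib1_LSKO peak within 500 bp, and 5.55% to 13.9% with 1 library left out. Their median mean percentile (23.1) was 22.2 to 29.2 over its 6 alternatives. The difference between AAV_Cebpa and AAV_Null in the share of lost-alone sites called (-5.84 points, exact permutation p = 1.0) turned to 0.651 without AAV_Null replicate 2 and ran from -10.1 to 0.651 over the left-out libraries. It was -14.2 with lists of equal length (exact permutation p = 0.33, as low as the design allows), -9.65 with only the Trib1_WT lists cut (exact permutation p = 0.667), -8.91 with a signal of at least 10, -7.79 with thinned tags, and -15.4 over all lost sites, before the exclusions. With the replicate numbers as a block, in differences within equal numbers, it was -5.84 (exact sign-flip permutation p = 1.0, smallest possible 0.5). The labels do not say that a number marks a shared animal or day. The exclusions had set this difference in part, so none of these p-values decides whether AAV_Cebpa and AAV_Null differ at lost sites. For retained sites 0.5 to 2 kb from lost-alone sites, the near-minus-far difference between Trib1_LSKO and Trib1_WT (-8.14 points) was -8.88 to -7.39 with 1 Trib1 library left out, -8.74 on autosomes, -8.08 without sites that had a close Trib1_LSKO peak, -9.19 with lists of equal length and -9.04 around all lost sites. The same difference between AAV_Cebpa and AAV_Null (-3.23 points) was -2.7 with lists of equal length and -1.57 around all lost sites. The settings without exclusions and the neighbours' equal-length setting were chosen after seeing the data. The weakest listed peaks held 7 to 12 tags. The motif and gene-start alternatives, which need sequence and genes of build mm9, were not run.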
